A study of Mus musculus with 83 samples.

Results

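The genes described here are 44 transcripts of glia and blood vessels that were counted in libraries made from captured cortical neurons. They were taken from a list of names, markers of 5 classes, and not by a threshold on their values: 16 astrocyte, 16 oligodendrocyte, 2 oligodendrocyte precursor, 7 microglia and 3 endothelial genes. All 44 had a row of their own among the 48795 genes counted. The libraries came from the frontal cortex of male C57BL/6 mice that were young (2 months) or old (22 months), and the labels give no treatment or genetic change for any group. Each library was made from total RNA of a pool of 125 cells cut by laser from 14 µm sections. The cells were picked by a stain for 1 transcript per type: Slc17a7 for pyramidal cells (PYC), Pvalb for parvalbumin interneurons (PV), Sst for somatostatin interneurons (SST), and Vip for interneurons with vasoactive intestinal peptide (VIP). Each type had 12 old libraries, and there were 9 young libraries of PYC, SST and VIP and 8 of PV, 83 in all. The libraries came from 12 old and 9 young mice, but which mouse gave which library is not recorded in the labels, so p-values measure the spread between libraries, and libraries of different types may share a mouse.

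In the cortex, astrocytes wrap synapses and capillaries, take up glutamate and potassium, and supply lipoproteins. Oligodendrocytes lay down myelin and arise from dividing precursor cells, microglia are the resident macrophages, and endothelial cells line the vessels. Their fine processes run between and along neuronal cell bodies, and some of the genes that mark them are also expressed at a low level by neurons. Whether a given transcript came from tissue cut along with a neuron or from the neuron itself was not tested, and fewer cells of a type and less RNA per cell cannot be told apart in pooled RNA.

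The total count of a library ran from 1456843 to 27166041, so the limit that a count of 0 allows (3 counts of the total, for counting error only) lay between 0.11 and 2.06 CPM (the count scaled to a library total of 1e6). The 14 general neuron genes listed for comparison, such as Snap25 and Syt1, had counts in each of the 83 libraries and summed to 7251 to 17019 CPM. Each staining gene was highest by median in the type it was used to pick. Slc17a7 was not confined to PYC: its median was 731 CPM in PYC and 273, 347 and 484 CPM in PV, SST and VIP. Of vessel wall cells, 2 to 10 of 13 mural genes and 0 to 7 of 10 fibroblast genes had a count in a given library. In 6 libraries, young VIP 1 and 3, young PYC 2, young SST 6, old PYC 10 and old VIP 11, the share of mitochondrially encoded genes was between 0.215% and 2.51%, whereas in the remaining 77 it was between 8.31% and 17.0%. Several of the 44 genes stood apart in these 6 libraries. Apoe lay between 533 and 1567 CPM in them and between 137 and 934 CPM (median 349) in the rest, and each of the 6 ranked first or second for Apoe in its own group. Sox9 averaged 40.8 against 14.7 CPM and Mbp 487 against 259 CPM, while the gap junction gene Gja1 averaged 12.9 against 28.4 CPM and P2ry12 1.94 against 9.56 CPM. Of the 44 genes, 24 had the higher mean in the 6 libraries and 20 the lower one. Where leaving them out changed a call among the 44 genes, the values without them are given with the results. Genes whose highest or lowest type changed are named.

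Together the 44 genes took 0.157% to 0.55% of the counts of a library (median 0.376%), and 29 to 43 of them had a count in a given library (median 38). All 44 had a count in at least 30 libraries, and 13 had one in each of the 83: Slc1a2, Slc1a3, Gja1, Sox9, Fgfr3, Aldoc, Clu, Apoe and Glul of astrocytes, Mbp, Mobp and Cnp of oligodendrocytes, and Flt1 of endothelium. The spread was wide. The coefficient of variation over all libraries ran from 26.7% for Slc1a2 to 263% for Trf, and it exceeded 100% for 24 of the 44 genes. The plot of detection and spread against level shows that the rarer genes were in general less often detected and more variable. The highest values were scattered: the maxima of the 44 genes fell in 28 different libraries. Of these maxima, 21 were in VIP, 10 in SST, 8 in PV and 5 in PYC libraries, and no library held more than 4 of them (old PV 4, with S100b, Aldoc, Mlc1 and P2ry12).

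**Figure D1:**
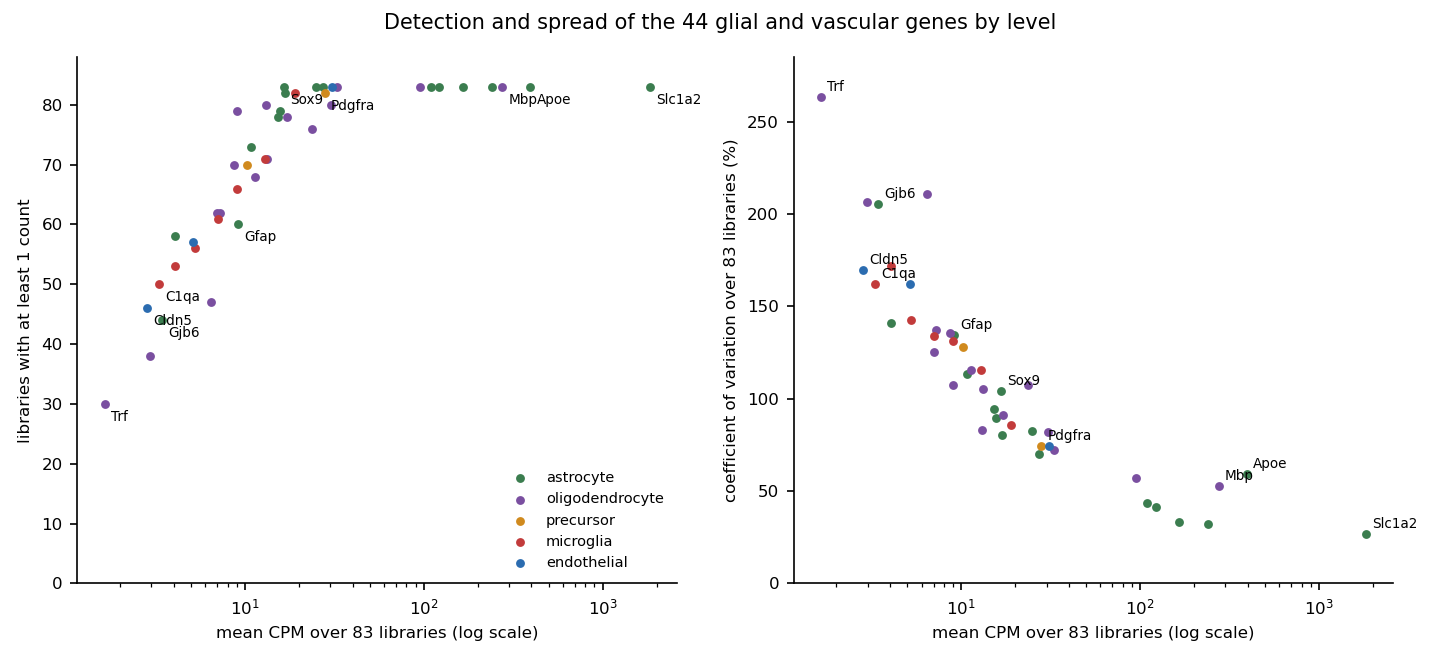
Number of libraries with at least 1 count (left) and coefficient of variation in percent over 83 libraries (right) against mean CPM on a log scale, 1 point per gene, coloured by class. Slc1a2, at a mean of 1831 CPM, varied least (26.7%), and Trf, at 1.64 CPM, varied most (263%) and was detected in 30 libraries.

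Astrocyte genes made up most of the signal. Slc1a2, which encodes the main glutamate transporter of astrocytes (chromosome 2, 102658659 to 102790784, GRCm38), averaged 1831 CPM and took 60.9% of the class sum. Its level ran in PYC pools from 1259.8 to 2989 CPM (median 2146), in PV pools from 652 to 1994 CPM (median 1312), in SST pools from 1265 to 2369 CPM (median 1718) and in VIP pools from 1026 to 2775 CPM (median 2155). All 20 PV libraries lay below the median of the other types (1994 CPM), although the ranges overlapped. Apoe, the lipoprotein of glial lipid transport (chromosome 7, 19696109 to 19699188), ran in PYC pools from 137 to 1149 CPM (median 303), in PV pools from 148 to 411 CPM (median 234), in SST pools from 150.2 to 688 CPM (median 407) and in VIP pools from 311 to 1567 CPM (median 445). It was low in PV, where no library passed 411 CPM, and high in VIP, where none fell below 311 CPM. Glul encodes glutamine synthetase, which converts glutamate taken up at synapses (chromosome 1, 153899944 to 153909723). Its level ran in PYC pools from 129 to 352 CPM (median 185), in PV pools from 70.4 to 352 CPM (median 209), in SST pools from 135 to 392 CPM (median 244) and in VIP pools from 212 to 459 CPM (median 291), with VIP highest. Each of the 21 VIP libraries was above the median of the other types (205 CPM). Per kilobase of exon, Apoe led with 184 CPM per kb, followed by Slc1a2 with 139 and Glul with 72.3 CPM per kb; these ranked 53rd, 81st and 213th of 21695 protein-coding genes.

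A second tier of astrocyte genes lay near or above 100 CPM. Clu encodes clusterin, a secreted chaperone and lipoprotein component, and averaged 165 CPM. Its level ran in PYC pools from 77.1 to 287 CPM (median 155), in PV pools from 77.3 to 224 CPM (median 128), in SST pools from 114 to 289.8 CPM (median 196) and in VIP pools from 75.7 to 279 CPM (median 167), highest in SST and lowest in PV. Slc1a3, the other astrocytic glutamate transporter gene, averaged 122 CPM with type means between 95.3 (PV) and 142 CPM (SST). Without the 6 libraries its highest mean was in VIP (148 CPM) and not in SST (146 CPM). Aldoc, the brain-enriched aldolase of glycolysis, ran in PYC pools from 6.91 to 176 CPM (median 87.2), in PV pools from 55.0 to 262 CPM (median 125), in SST pools from 38.1 to 178 CPM (median 91.5) and in VIP pools from 50.9 to 222 CPM (median 128). Unlike Slc1a2, Apoe and Clu, it had higher medians in PV and VIP than in PYC and SST.

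The other astrocyte genes were at or below about 27 CPM on average. Gja1 (connexin 43) averaged 27.3 CPM and was found in each library, whereas Gjb6 (connexin 30) had a mean of 3.42 CPM and a count in 44 of 83 libraries. Gfap, the intermediate filament of reactive and fibrous astrocytes, had a count in 60 of 83 libraries. Its level ran in PYC pools from 0 to 20.1 CPM (median 2.82), in PV pools from 0 to 14.6 CPM (median 0.0681), in SST pools from 0 to 67.3 CPM (median 12.3) and in VIP pools from 0 to 44.3 CPM (median 6.34), with the highest library a young SST pool. In PV, 10 of 20 libraries had no Gfap count. S100b, a calcium-binding protein of astrocytes that some neurons also express, ran in PYC pools from 4.15 to 45.6 CPM (median 22.2), in PV pools from 0.281 to 58.1 CPM (median 13.7), in SST pools from 0.541 to 29.7 CPM (median 14.5) and in VIP pools from 0 to 28.7 CPM (median 4.61), so that its median was lowest in VIP, where that of Apoe was highest. The water channel gene Aqp4 averaged 15.3 CPM, the membrane protein gene Mlc1 15.7, the transcription factor gene Sox9 16.6, the growth factor receptor gene Fgfr3 24.9, the folate enzyme gene Aldh1l1 10.8 and the amino acid transporter gene Slc7a10 4.05 CPM. Slc7a10 had a count in 58 of 83 libraries, and the remaining 5 of these 6 in 73 to 83.

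Myelin genes came next. Mbp, which encodes myelin basic protein (chromosome 18, 82475146 to 82585637), averaged 275 CPM and made up 49.6% of the oligodendrocyte sum. Its level ran in PYC pools from 108 to 596 CPM (median 264), in PV pools from 112 to 325 CPM (median 208), in SST pools from 114 to 538 CPM (median 308) and in VIP pools from 50.6 to 918 CPM (median 210.2). PV pools kept within the narrowest range. VIP pools held both the lowest and the highest library, the latter being young VIP 3, a library with few mitochondrial counts. Mobp, another compact myelin protein gene (chromosome 9, 120149707 to 120181484), ran in PYC pools from 17.9 to 257 CPM (median 98.9), in PV pools from 27.7 to 121 CPM (median 66.4), in SST pools from 11.6 to 238 CPM (median 122) and in VIP pools from 2.07 to 165 CPM (median 83.2), with SST highest. Cnp, an enzyme of myelin membranes (chromosome 11, 100574904 to 100591729), ran in PYC pools from 1.72 to 52.6 CPM (median 25.5), in PV pools from 2.30 to 62.2 CPM (median 21.6), in SST pools from 1.43 to 115 CPM (median 39.9) and in VIP pools from 1.26 to 95.3 CPM (median 32.3), again highest in SST. For 9 of the 16 oligodendrocyte genes the mean over SST libraries was the highest of the 4 types, and for 11 of the 16 the PV mean was the lowest. Without the 6 libraries with few mitochondrial counts these counts were 10 and 8, and the lowest means of Mbp and Mobp were in VIP (194 and 70.8 CPM) and not in PV (218 and 71.6 CPM).

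The remaining myelin genes were sparser. The proteolipid gene Mal averaged 30.4 CPM and Mag, an adhesion protein of the inner myelin layer, 23.6 CPM. Gjc3, a connexin of oligodendrocytes, averaged 17.2, the cytoskeletal gene Ermn 13.3 and Ugt8a, which makes myelin galactolipid, 11.3 CPM. Mog, on the outer myelin surface, and Cldn11, of its tight junctions, averaged 7.20 and 7.01 CPM and each had a count in 62 of 83 libraries. Opalin (6.43 CPM, 47 of 83 libraries), the aspartoacylase gene Aspa (2.95 CPM, 38 of 83) and the transferrin gene Trf (1.64 CPM, 30 of 83) were the least often detected. Lineage transcription factors were in most pools: Olig1 averaged 13.1 CPM (80 of 83 libraries), Sox10 8.98 CPM (79 of 83) and Olig2 8.65 CPM (70 of 83). In 67 of 83 libraries both Olig1 and Olig2 had a count.

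Precursor cells were represented by their growth factor receptor and their surface proteoglycan. Pdgfra, the receptor that drives precursor division (chromosome 5, 75152292 to 75198215), had a count in 82 of 83 libraries. It ran in PYC pools from 0.3 to 66.6 CPM (median 21.8), in PV pools from 1.26 to 56.0 CPM (median 16.4), in SST pools from 0 to 63.5 CPM (median 13.4) and in VIP pools from 16.6 to 89.9 CPM (median 38.3). VIP libraries had the highest median, and no VIP library fell below 16.6 CPM. Cspg4, the NG2 proteoglycan, which pericytes express too (chromosome 9, 56865033 to 56899870), ran in PYC pools from 0 to 34.6 CPM (median 6.91), in PV pools from 0 to 26.2 CPM (median 1.03), in SST pools from 0 to 67.0 CPM (median 9.36) and in VIP pools from 0.0762 to 63.3 CPM (median 10.3). In PV pools it had a count in 12 of 20 libraries, against 21 of 21 VIP libraries. Both genes were detected together in 69 of 83 libraries.

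Microglial genes were low and patchy. Csf1r, the receptor that microglia need for survival (chromosome 18, 61100598 to 61132149), led the class at 19.0 CPM and had a count in 82 of 83 libraries. It ran in PYC pools from 0 to 42.6 CPM (median 15.1), in PV pools from 0.134 to 55.2 CPM (median 7.26), in SST pools from 1.70 to 77.5 CPM (median 16.03) and in VIP pools from 5.58 to 80.5 CPM (median 18.4). The types overlapped over most of their range. Cx3cr1, the fractalkine receptor (chromosome 9, 119901616 to 120069879), ran in PYC pools from 0 to 35.9 CPM (median 6.34), in PV pools from 0 to 66.8 CPM (median 2.47), in SST pools from 0 to 52.6 CPM (median 14.5) and in VIP pools from 0 to 67.7 CPM (median 13.1). P2ry12, a purinergic receptor of resting microglia (chromosome 3, 59216272 to 59262871), ran in PYC pools from 0 to 54.0 CPM (median 9.08), in PV pools from 0 to 58.1 CPM (median 2.38), in SST pools from 0 to 39.9 CPM (median 5.23) and in VIP pools from 0 to 34.2 CPM (median 1.17). Tmem119, a membrane protein specific to microglia within the brain, averaged 4.06 CPM in 53 of 83 libraries. The 3 chains of complement C1q, which lie next to each other on chromosome 4, averaged 3.30 (C1qa), 7.03 (C1qb) and 5.25 CPM (C1qc). C1qa ran in PYC pools from 0 to 17.7 CPM (median 3.60), in PV pools from 0 to 15.5 CPM (median 0.32), in SST pools from 0 to 30.3 CPM (median 0.881) and in VIP pools from 0 to 7.12 CPM (median 0.698), with the highest median in PYC. The chains were often not all present: 27 of 83 libraries had counts of all 3, 34 of 2, 18 of 1 and 4 of none. At least 3 of the 7 microglial genes had a count in each library, and all 7 in 14.

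Endothelial genes were led by Flt1, a receptor for vascular endothelial growth factor (chromosome 5, 147561604 to 147726011), with a mean of 30.8 CPM and 79.4% of the class sum. It ran in PYC pools from 1.66 to 92.7 CPM (median 24.4), in PV pools from 0.408 to 78.7 CPM (median 27.02), in SST pools from 1.27 to 106 CPM (median 27.1) and in VIP pools from 10.01 to 85.2 CPM (median 37.4). VIP was highest by median, with overlap between all types. The adhesion gene Pecam1 (chromosome 11, 106654217 to 106750628) ran in PYC pools from 0 to 20.3 CPM (median 0.562), in PV pools from 0 to 24.8 CPM (median 1.99), in SST pools from 0 to 25.5 CPM (median 1.56) and in VIP pools from 0 to 53.3 CPM (median 3.35). Cldn5, the main claudin of the blood-brain barrier (chromosome 16, 18776847 to 18778262), ran in PYC pools from 0 to 14.0 CPM (median 0.586), in PV pools from 0 to 9.62 CPM (median 0.153), in SST pools from 0 to 17.3 CPM (median 0) and in VIP pools from 0 to 21.3 CPM (median 0.803). Cldn5 and Pecam1 had counts in 46 of 83 and 57 of 83 libraries, so for both genes a part of each type was at 0. In 35 of 83 libraries all 3 genes had a count, in 33 there were 2 and in 15 only 1, which was Flt1.

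The sums over each class compared types and ages as a whole, and they are given with no test because the genes were chosen with earlier results known. For astrocyte genes the summed level ran from 2088 to 4295 CPM (median 3039) in PYC, from 1224 to 3481 CPM (median 2211) in PV, from 2229.7 to 3793 CPM (median 3029) in SST and from 2696 to 4364 CPM (median 3586) in VIP libraries. PV was lowest and VIP highest. Without Slc1a2, a sum formed after seeing the data, PV was again lowest and VIP highest: the old and young means were 992 and 891 CPM in PV and 1393 and 1608 CPM in VIP. Oligodendrocyte sums ran from 211 to 1031 CPM (median 503) in PYC, from 257 to 553 CPM (median 444) in PV, from 294 to 1117 CPM (median 643) in SST and from 125 to 1350.3 CPM (median 522) in VIP. Here SST was highest, and VIP was the most variable. Precursor sums had medians of 29.2, 20.7, 26.8 and 46.7 CPM in PYC, PV, SST and VIP. Microglial sums had medians of 63.0, 34.0, 73.0 and 56.2 CPM, and endothelial sums 28.0, 33.7, 31.0 and 41.1 CPM. All 5 sums overlapped between all types. Gene by gene, PV had the lowest mean for 25 of the 44 genes, and VIP the highest for 19, SST for 15, PYC for 7 and PV for 3. Without the 6 libraries PV was lowest for 23, and the counts of highest means were the same, though not for the same genes: the highest type moved for Slc1a2 and Slc1a3 (to VIP), Cldn11 (to SST) and Aqp4 (to PYC). The lowest type moved for Mbp and Mobp (from PV to VIP), Sox10 and C1qc (from PV to PYC), and Aqp4 and P2ry12 (to PV).

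By age, the old and young ranges of the class sums overlapped in each type and class. Old against young means (± SD, n = 12 old and 8 or 9 young, in CPM) were, for astrocyte genes, 3014 ± 494 against 3326 ± 464 in PYC, 2377 ± 722 against 2201 ± 298 in PV, 2939 ± 502 against 2999 ± 431 in SST, 3563 ± 413 against 3586 ± 578 in VIP. For oligodendrocyte genes they were 579.9 ± 246 against 550.2 ± 277 in PYC, 406 ± 90.4 against 471 ± 80.2 in PV, 686 ± 249 against 698 ± 277 in SST, 454 ± 217 against 616 ± 352 in VIP. The largest relative gap of the astrocyte sum, in PYC, was smaller than either SD. Precursor sums averaged 35.7 ± 27.4 against 41.6 ± 31.8 in PYC, 19.2 ± 15.1 against 30.2 ± 18.7 in PV, 42.9 ± 38.7 against 23.8 ± 14.7 in SST, 54.6 ± 24.4 against 56.8 ± 28.4 in VIP. For microglial genes the means were 68.2 ± 30.1 against 51.1 ± 20.7 in PYC, 49.0 ± 37.1 against 40.3 ± 21.04 in PV, 69.7 ± 23.2 against 65.3 ± 31.9 in SST, 65.4 ± 29.4 against 70.8 ± 45.3 in VIP. Endothelial sums averaged 28.6 ± 23.8 against 33.7 ± 14.0 in PYC, 23.7 ± 20.4 against 48.9 ± 27.5 in PV, 32.1 ± 18.7 against 43.1 ± 34.0 in SST, 50.9 ± 22.3 against 56.5 ± 40.0 in VIP. The endothelial sum in PV had the widest relative gap between the ages, with an old mean that was 0.485 times the young one and 2 of 12 old libraries above the young median. The count of genes with the higher mean in old libraries was 23 of 44 in PYC, 24 in PV, 20 in SST and 15 in VIP. In VIP, 14 of the 16 oligodendrocyte genes had the lower mean in old pools. This count includes young VIP 1 and 3, which had few mitochondrial counts, and it was not repeated without them. In the edgeR fit described below, 9 of the 13 of these genes tested had a negative log2 fold change. The positive share was 30.8%, against 51.8% of all genes tested. Without the 6 libraries with few mitochondrial counts, the oligodendrocyte sum in VIP averaged 416 in old against 511 CPM in young pools.

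**Figure D2:**
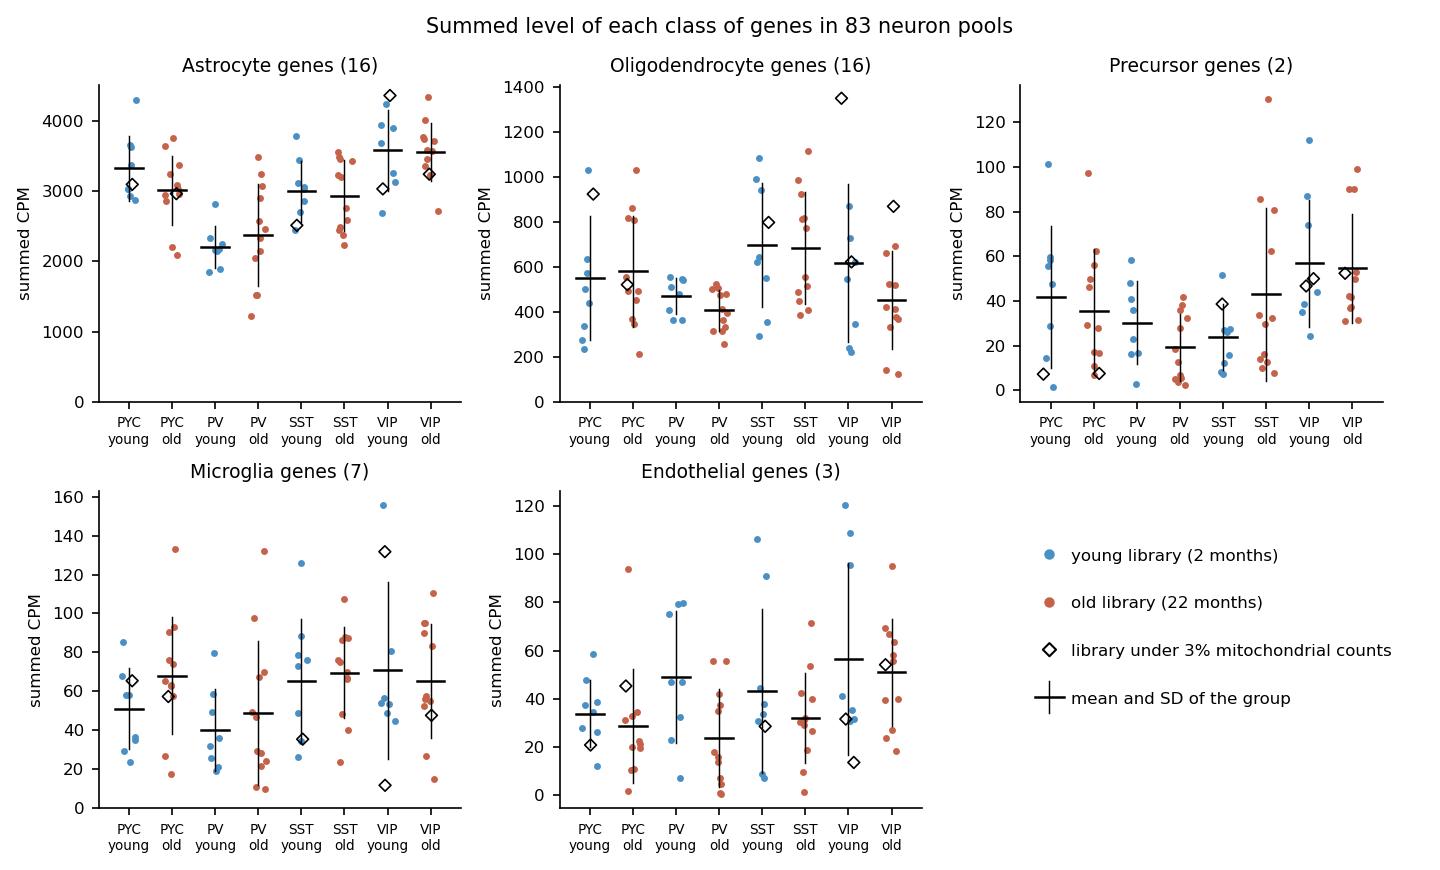
Summed CPM of the members of each class (y axis) in each library, by neuron type and age (x axis); points are libraries, open diamonds are the 6 libraries with few mitochondrial counts, and lines and bars are group means and SD. The PV groups lie lowest for astrocyte genes, with means of 2201 and 2377 CPM, and old and young libraries overlap in all panels.

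No member passed the test for age in any type. Old and young libraries were compared within each type by edgeR's quasi-likelihood test over all genes that passed a filter on low counts, with Benjamini-Hochberg adjustment. In simulated data this test recovered 11.7% to 27.37% of genes changed 2-fold and 36.36% to 47.96% of those changed 4-fold. Changes of that size could thus be missed. Of the 44 genes, 39 passed the filter in PYC, 40 in PV, 40 in SST and 38 in VIP, and 0 had an adjusted p under 0.05. The background was the same, with 0% of 12508 (PYC), 0% of 12564 (PV), 0% of 12805 (SST) and 0% of 12337 genes (VIP) called. At an unadjusted p under 0.05 there were 2 members in PYC, 0 in PV, 1 in SST and 0 in VIP, against 364, 291, 368 and 368 of all genes. DESeq2 and limma-voom likewise called 0 members in each type. At an unadjusted p under 0.05, DESeq2 had 2, 0, 1 and 2 members and limma-voom 3, 2, 4 and 2 in PYC, PV, SST and VIP. Over all genes there were 547, 489, 572 and 636 by DESeq2 and 779, 685, 805 and 631 by limma-voom. The median log2 fold change of the tested members, old against young, was 0.02 in PYC, 0.003 in PV, -0.02 in SST and -0.08 in VIP, beside 0.0031, 0.0046, -0.0079 and 0.02 over all tested genes.

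The 3 members with an unadjusted p under 0.05 follow, although none passed the adjusted threshold. P2ry12 ran from 1.64 to 54.0 CPM (median 13.2) in old and from 0 to 13.6 CPM (median 0.733) in young PYC pools. All 12 old libraries lay above the young median, yet the ranges overlapped, and the log2 difference was 2.01 ± 0.96 (SE), with an unadjusted p of 0.0429 and an adjusted p of 1 by edgeR. P2ry12 lies within Med12l, which is transcribed from the opposite strand and averaged 116 CPM, and the strand setting of the counting is not known. Ermn, whose protein shapes the myelin cytoskeleton, ran from 0 to 69.4 CPM (median 23.8) in old and from 0.64 to 23.1 CPM (median 3.95) in young PYC pools. Here 10 of 12 old libraries were above the young median, with a log2 difference of 1.60 ± 0.78 (SE) and an edgeR adjusted p of 1. Olig2, the transcription factor of the oligodendrocyte lineage, ran from 0 to 32.2 CPM (median 1.47) in old and from 2.66 to 46.6 CPM (median 16.4) in young SST pools. In this case 11 of 12 old libraries were below the young median, with a log2 difference of -2.09 ± 0.94 (SE) and an edgeR adjusted p of 1. Gfap, often used as a sign of reactive astrocytes, averaged 7.83 ± 8.61 CPM (SD, n = 12) in old against 6.48 ± 5.85 CPM (SD, n = 9) in young PYC pools. In PV it averaged 2.04 ± 3.12 CPM (SD, n = 12) against 3.65 ± 5.49 CPM (SD, n = 8), in SST 13.0 ± 9.39 CPM (SD, n = 12) against 20.2 ± 23.9 CPM (SD, n = 9), and in VIP 9.46 ± 11.6 CPM (SD, n = 12) against 11.2 ± 14.5 CPM (SD, n = 9). The old mean was the higher one in PYC and the lower one in PV, SST and VIP, and each gap was smaller than the larger SD.

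Whether the age difference varied between types was asked in 1 fit of all 8 groups, restricted to the more abundant of the genes that passed the filter on low counts. Of 9604 genes tested, 0.0104% were called (1 gene), and of the 27 members among them 0 were, with 0 at an unadjusted p under 0.05. By DESeq2 and limma-voom 0 members were called as well, with 0 and 1 at an unadjusted p under 0.05. By edgeR the smallest unadjusted p of a member was 0.193, for Pdgfra.

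A few members were called between neuron types, in no type at a higher share than all genes. Most of those called were astrocyte genes, the largest class among the members tested. Each type was compared with the mean of the other 3, ages weighted equally, in the same fit of all 83 libraries. The 27 members tested were 13 astrocyte, 9 oligodendrocyte, 2 precursor, 2 microglial (Csf1r, Cx3cr1) and 1 endothelial gene (Flt1). In PV, 5 of 27 were called (adjusted p under 0.05 by edgeR's quasi-likelihood test), against 22.6% of all tested genes. Of these, 1 was higher and 4 were lower, against 11.7% and 10.9% of all genes. VIP had 3 of 27, 2 higher and 1 lower, against 12% of all genes, 5.8% higher and 6.2% lower. In PYC 1 of 27 was called, and it was higher, against 16.6%, 9.13% higher and 7.5% lower. In SST 1 of 27 was called, also higher, against 7.56%, 4.64% higher and 2.92% lower. The share of members called was thus near the share of all genes in PV (18.5%) and VIP (11.1%) and below it in PYC and SST (3.70% each). These contrasts share libraries with one another, since each type enters the mean of the rest.

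Slc1a2 was lower in PV, with 1355 ± 356 CPM (SD, n = 20) against 2105 ± 428 CPM (SD, n = 21) in PYC, 1754 ± 302 CPM (SD, n = 21) in SST and 2088 ± 455 CPM (SD, n = 21) in VIP. The log2 fold change was -0.47 ± 0.08 (SE; adjusted p = 1.43e-06, edgeR), and 20 of 20 PV libraries were below the median of the others. It was higher in PYC by 0.35 ± 0.08 on the log2 scale (SE; adjusted p = 1.54e-04, edgeR), with 18 of 21 libraries above the median of the others (1695 CPM). With old libraries alone the PYC difference was 0.24, adjusted p = 0.0813 (edgeR), which did not pass. In VIP the log2 fold change was 0.21 ± 0.08 (SE; adjusted p = 0.0614, edgeR), which did not pass, but 6 of the 8 alternatives called it higher, among them DESeq2 (0.27, adjusted p = 0.00818) and edgeR without the 6 libraries with few mitochondrial counts (0.28, adjusted p = 0.00226). Without those libraries its highest mean was in VIP (2189 CPM) and not in PYC (2166 CPM).

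Apoe was lower in PV and higher in VIP. Its means were 254 ± 82.0 CPM (SD, n = 20) in PV, 334 ± 214 CPM (SD, n = 21) in PYC, 415 ± 133 CPM (SD, n = 21) in SST and 567.7 ± 313 CPM (SD, n = 21) in VIP. The log2 fold change in PV was -0.72 ± 0.15 (SE; adjusted p = 1.16e-04, edgeR), with 18 of 20 libraries below the median of the other types. In VIP it was 0.74 ± 0.14 (SE; adjusted p = 2.09e-05, edgeR), with 20 of 21 libraries above. None of the 6 libraries with few mitochondrial counts was a PV pool and 3 were VIP pools. Without them the values were -0.56, adjusted p = 8.97e-05 in PV and 0.60, adjusted p = 3.64e-05 in VIP (edgeR), so both calls remained. Apoe was then also called lower in PYC (-0.34, adjusted p = 0.035, edgeR), which it was not with all libraries.

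Glul was higher in VIP, with 304 ± 63.5 CPM (SD, n = 21) against 201 ± 57.8 CPM (SD, n = 21) in PYC, 213 ± 81.9 CPM (SD, n = 20) in PV and 241 ± 63.0 CPM (SD, n = 21) in SST. The log2 fold change was 0.43 ± 0.10 (SE; adjusted p = 0.00149, edgeR), and 21 of 21 VIP libraries were above the median of the rest. Clu was lower in PV, with a log2 fold change of -0.37 ± 0.12 (SE; adjusted p = 0.0123, edgeR; 17 of 20 libraries below the median of the others). It was higher in SST by 0.35 ± 0.11 (log2, SE; adjusted p = 0.032, edgeR; 17 of 21 above). The SST call did not pass with the F number of the sample titles as a factor (0.32, adjusted p = 0.0744) or with RLE scaling (0.33, adjusted p = 0.0527, both edgeR). Its means were 128 ± 39.2 CPM (SD, n = 20) in PV, 157 ± 49.2 CPM (SD, n = 21) in PYC, 172 ± 52.5 CPM (SD, n = 21) in VIP and 199.9 ± 52.8 CPM (SD, n = 21) in SST.

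Aldoc moved the other way in PV, where it was higher by 0.42 ± 0.16 (log2, SE; adjusted p = 0.0488, edgeR) with 13 of 20 libraries above the median of the other types. This call was at the threshold and did not pass without the 6 libraries with few mitochondrial counts (0.32, adjusted p = 0.119, edgeR) nor by DESeq2 (0.40, adjusted p = 0.0638). S100b was lower in VIP, with a log2 fold change of -1.23 ± 0.43 (SE; adjusted p = 0.047, edgeR). Its means were 8.75 ± 8.47 CPM (SD, n = 21) in VIP against 23.7 ± 12.7 CPM (SD, n = 21) in PYC, 20.7 ± 17.2 CPM (SD, n = 20) in PV and 14.3 ± 9.70 CPM (SD, n = 21) in SST, with 17 of 21 VIP libraries below the median of the others. Without the same 6 libraries the difference was -1.25, adjusted p = 0.0868 (edgeR), which did not pass. The gene S100b overlaps by 1731 bases with Dip2a on the opposite strand, which averaged 108 CPM.

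Cspg4 was lower in PV, with a log2 fold change of -1.93 ± 0.70 (SE; adjusted p = 0.0346, edgeR), the only called member outside the astrocyte class. Its means were 3.86 ± 6.65 CPM (SD, n = 20) in PV against 8.21 ± 9.22 CPM (SD, n = 21) in PYC, 12.9 ± 15.7 CPM (SD, n = 21) in SST and 15.7 ± 15.7 CPM (SD, n = 21) in VIP, and 15 of 20 PV libraries were below the median of the others. The call did not pass with the F number as a factor (-2.005, adjusted p = 0.0502) or on all filtered genes (-1.92, adjusted p = 0.0505, both edgeR). Among the oligodendrocyte, microglial and endothelial members tested, 0 passed in any type. At an unadjusted p under 0.05 there were 2 of 9 oligodendrocyte genes in SST, against 15.8% of all tested genes. There were 0 in the other types, and 0 microglial or endothelial genes. limma-voom called Mbp, Mobp and Mag higher in SST and Mbp lower in VIP, and Cx3cr1 lower and Ugt8a higher in PV; DESeq2 called 0 of these.

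**Figure D3:**
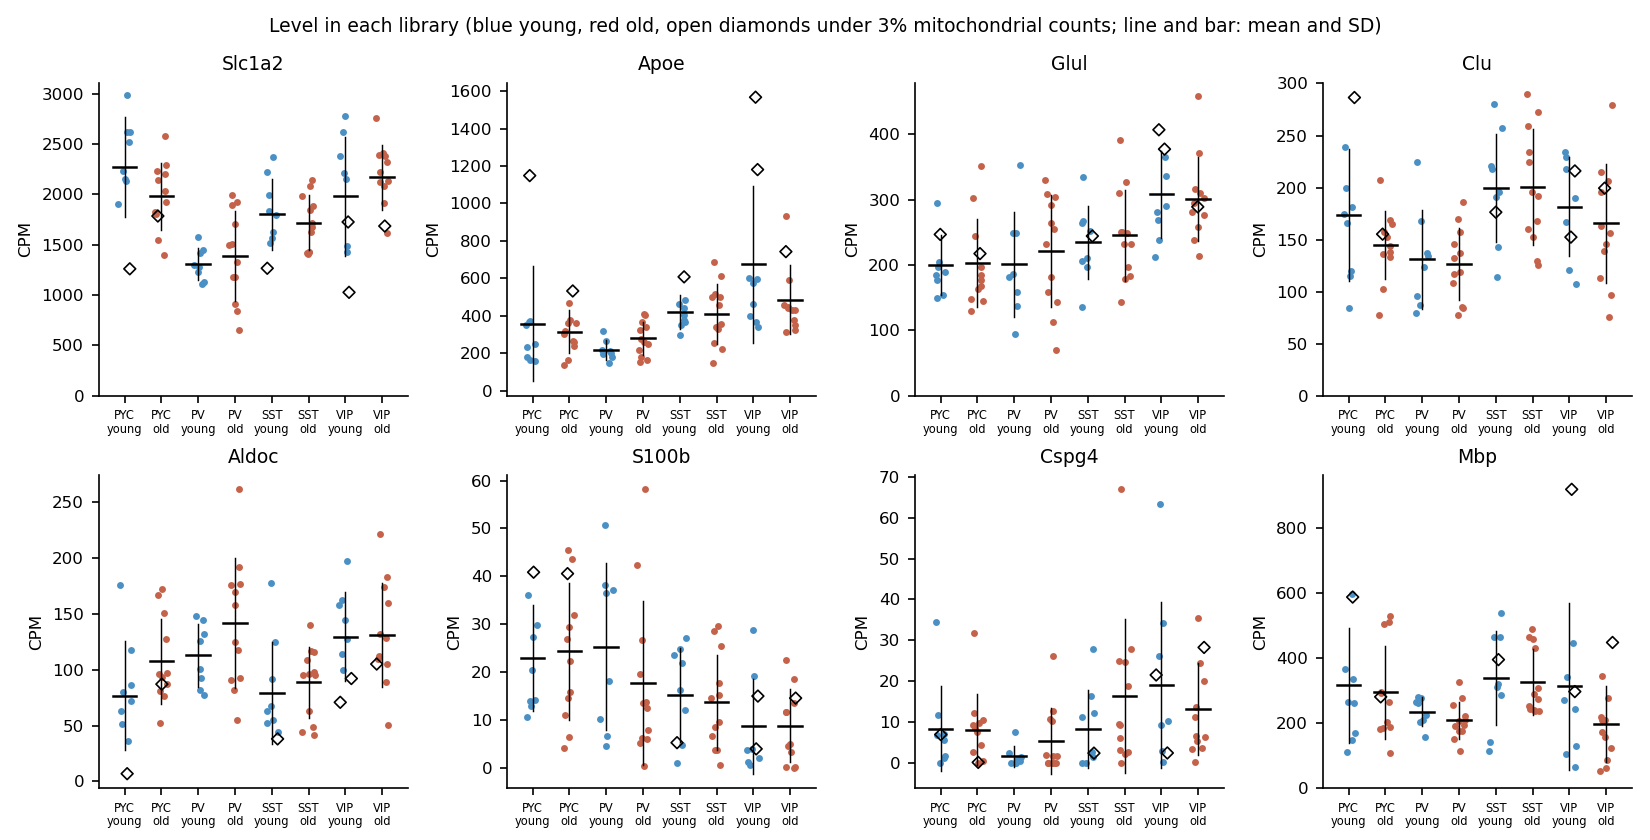
CPM (y axis) in each library of the 7 members called between types and of Mbp, which was not, by neuron type and age (x axis), with group means and SD. Slc1a2 is low in both PV groups, and the open diamonds, the 6 libraries with few mitochondrial counts, include the highest Apoe values, up to 1567 CPM.

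The directions of the members that did not pass are given as a description. In PV, 20 of the 27 tested members had a negative log2 fold change (74.1%), against 49.4% of all tested genes, and the median was -0.34. In VIP, 19 of 27 were positive (70.4%, all genes 49.5%), with a median of 0.33. PYC had 10 positive and 17 negative members (37.0% positive, all genes 47.3%, median -0.15) and SST 16 and 11 (59.3% positive, all genes 53.9%, median 0.16). Classes differed in this. All 9 oligodendrocyte genes tested were positive in SST, with a median of 0.49, and 7 of 9 were negative in PV (median -0.38). In VIP, by contrast, 11 of 13 astrocyte genes were positive (median 0.34) and 6 of 9 oligodendrocyte genes negative (median -0.04). Ugt8a went against its class in PV, at 1.10 ± 0.61 (log2, SE), and did not pass (adjusted p = 0.219, edgeR). In SST, Aldoc was at -0.49 ± 0.17 and Aldh1l1 at -1.56 ± 0.62 (log2, SE; adjusted p = 0.052 and 0.131, edgeR). Neither passed in this edgeR fit, while DESeq2 called both lower there (adjusted p = 0.0262 and 0.0209). Without the 6 libraries with few mitochondrial counts, edgeR called Aldoc lower in SST (-0.51, adjusted p = 0.0224). Slc1a3, not called with all libraries, was then called lower in PV (-0.43, adjusted p = 0.0323, edgeR).

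**Figure D4:**
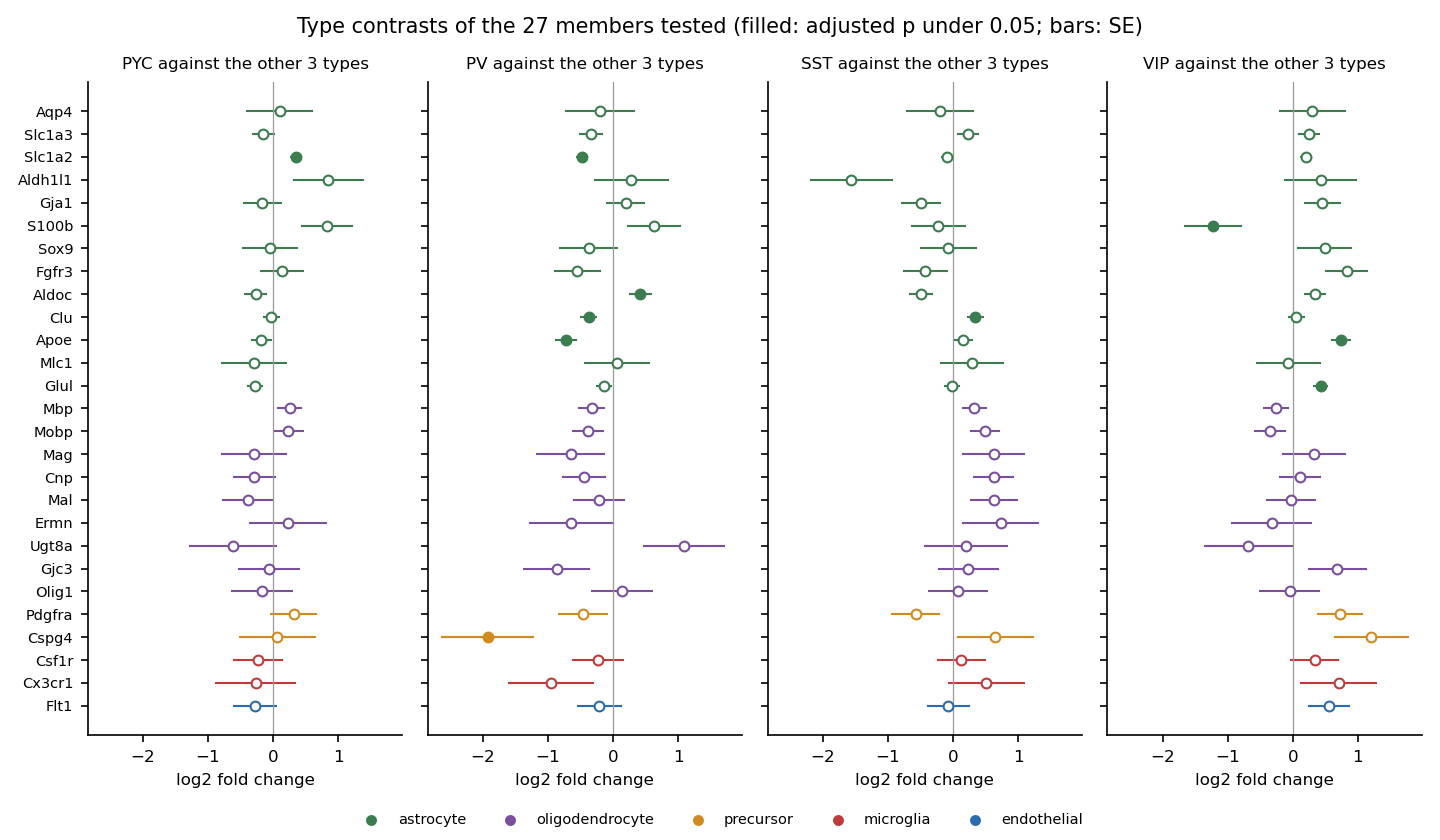
Log2 fold change (x axis) of each of the 27 members tested (y axis) in each type against the mean of the other 3, with SE bars, coloured by class; filled points have an edgeR adjusted p under 0.05. In SST all 9 oligodendrocyte genes lie to the right of 0 and none is filled.

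Whether genes of a class rose and fell together from pool to pool was asked with 10 pairs in each type, 40 tests in all, on age-centred log2 (CPM + 1) values with permutation within age (100000 resamples, 2-sided) and Benjamini-Hochberg adjustment over the 40. The pairs, like the genes, were picked with earlier results of these data known. The adjustment covers the picked pairs alone, so these p-values are not those of pairs set in advance. Mbp and Mobp, both of compact myelin, rose and fell together in PYC (r = 0.78, rho = 0.80, n = 21), SST (r = 0.77, rho = 0.69, n = 21) and VIP (r = 0.65, rho = 0.66, n = 21). Their permutation adjusted p for r was 0.0016, 0.0022 and 0.0045 (unadjusted 4.00e-05, 1.10e-04 and 4.50e-04), and for rho 0.0032, 0.0129 and 0.0129. Leaving out the 2 libraries farthest from the median of Mbp gave r = 0.69, 0.63 and 0.57. In PV, where both genes had their narrowest range, the pair gave r = 0.16, rho = 0.17 (n = 20; permutation adjusted p for r = 0.707), and the difference between types was not tested.

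The glutamate transporter genes Slc1a3 and Slc1a2 were correlated in PYC (r = 0.78, rho = 0.67; permutation adjusted p = 0.0036 for r and 0.0129 for rho) and PV (r = 0.67, rho = 0.63; 0.0449 and 0.0635). They were not called in SST (r = 0.32, rho = 0.28) or VIP (r = 0.14, rho = -0.08). Apoe and Clu were correlated by r in PYC (r = 0.63, rho = 0.55; permutation adjusted p = 0.038 for r and 0.083 for rho) and VIP (r = 0.54, rho = 0.55; 0.0449 and 0.0671). Without the 2 libraries farthest from the median of the first gene, r was 0.57 and 0.76 for the transporters in PYC and PV, and 0.39 and 0.45 for Apoe and Clu in PYC and VIP. Without the 6 libraries with few mitochondrial counts, Mbp and Mobp stayed called by r in PYC, SST and VIP, though in VIP rho did not pass (permutation adjusted p = 0.041 for r and 0.103 for rho). Slc1a3 with Slc1a2 in PYC (r = 0.63, permutation adjusted p = 0.0529) and Apoe with Clu in PYC (r = 0.51, adjusted p = 0.168) did not pass. In PV, which holds none of the 6 libraries, the transporter pair kept its r of 0.67, and its permutation adjusted p moved to 0.0529 through the adjustment over the 40 tests. Apoe with Clu in VIP had r = 0.75 (permutation adjusted p = 0.00907). C1qa and C1qb, chains of 1 protein, gave r between -0.32 (SST) and 0.38 (PYC), and Cldn5 and Flt1 between -0.08 (VIP) and 0.46 (PV). None of these 8 was called, and 4 to 9 libraries per type had 0 counts of C1qb and 8 to 12 of Cldn5. Of the 20 tests within a class 7 were called and 18 had a positive r (median 0.31). Of the 20 across classes 0 were called, 0 had an unadjusted p under 0.05 for r, 10 were positive and the median was 0.0058. The sparse genes were also in the pairs across classes: C1qb was paired with Mbp and Slc1a3, and Cldn5 with Apoe. The genes of the called pairs had a count in each library, so from the pairs with C1qb or Cldn5 they differed in detection as well as class. Mbp with Slc1a3 and Mbp with Apoe also had counts in each library. These 2 pairs were not called in any type, with r from -0.29 (Slc1a3, PYC) to 0.26 (Apoe, PYC). The sets within and across classes were not compared by a test.

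**Figure D5:**
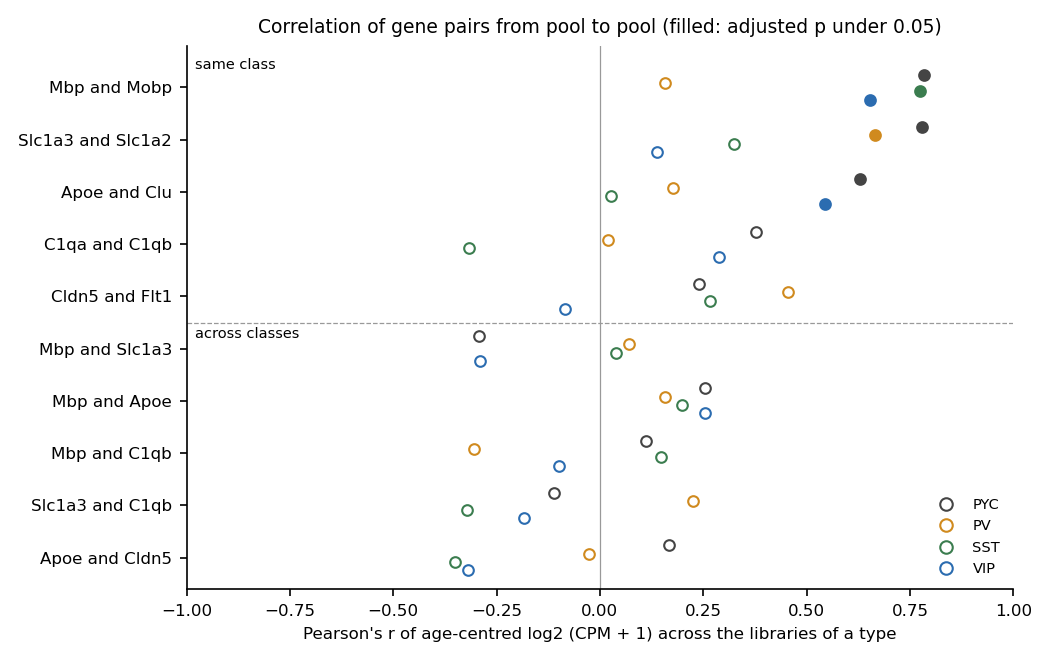
Pearson's r (x axis) of 10 gene pairs (y axis) across the 20 or 21 libraries of each neuron type, from age-centred log2 (CPM + 1); filled points have a permutation adjusted p under 0.05. Filled points occur among pairs of 1 class alone, up to r = 0.78 for Mbp and Mobp in PYC.

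Other markers of the same cells, from longer lists, were read from the same fits. For age 0 passed in any list or type, as for all genes. Between types, the wider astrocyte list (24 genes) had 3 higher and 2 lower of 20 tested in PV, 1 higher and 3 lower of 20 tested in PYC, 0 higher and 0 lower of 20 tested in SST and 4 higher and 1 lower of 20 tested in VIP. These were 25%, 20%, 0% and 25% of those tested, against 22.6%, 16.6%, 7.56% and 12% of all genes. The sum of this list was highest in PV, unlike that of the 16 astrocyte members: it averaged 3063 ± 381 CPM in PV, 1791 ± 401 in PYC, 2189.8 ± 223 in SST and 2384 ± 427 in VIP (SD, n = 20 in PV and 21 in the others). Against the members' direction in PV, Sparcl1, a matricellular synapse protein gene, averaged 1799 ± 276 CPM (SD, n = 20) in PV and 565 ± 232 CPM (SD, n = 21) in PYC. Sparcl1 thus held most of the list sum in PV and nearly all of its gap to PYC. A sum of the list without Sparcl1 was not formed. The log2 fold change of Sparcl1 in PV was 1.42 ± 0.08 (SE; adjusted p = 6.08e-29, edgeR), and the lowest PV library (1274 CPM) exceeded the highest of the other types (1212 CPM). The proteoglycan gene Bcan was higher in PV too (1.37 ± 0.16; adjusted p = 4.48e-12, edgeR). The sodium pump subunit gene Atp1b2 went with Apoe, lower in PV (-1.23 ± 0.14) and higher in VIP (0.95 ± 0.12; adjusted p = 2.37e-12 and 3.71e-10, edgeR).

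In the wider oligodendrocyte list (25 genes) there were 0 higher and 1 lower of 14 tested in PV, 1 higher and 1 lower of 14 tested in PYC and 1 higher and 0 lower of 14 tested in VIP. These were 7.14%, 14.3% and 7.14% of those tested, against 22.6%, 16.6% and 12% of all genes. In SST, 11 of the 14 genes tested had a positive log2 fold change (78.6%, all genes 53.9%), with a median of 0.25. The tubulin gene Tubb4a, which neurons express as well, was higher in PYC (0.59 ± 0.09) and lower in PV (-0.52 ± 0.10). Enpp2, a lysophospholipase gene also active in choroid plexus, was higher in VIP (0.81 ± 0.20) and lower in SST (-0.69 ± 0.22; adjusted p = 0.00249 and 0.0364, edgeR).

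The wider precursor list (14 genes) had 2 higher and 3 lower of 8 tested in PV, 2 higher and 2 lower of 8 tested in VIP, 2 higher and 2 lower of 8 tested in PYC and 1 higher and 0 lower of 8 tested in SST. These were 62.5%, 50%, 50% and 12.5% of those tested, against 22.6%, 12%, 16.6% and 7.56% of all genes. Sox6, which also marks interneurons of the medial ganglionic eminence, ran from 29.4 to 196 CPM (median 124) in PV and from 50.02 to 229 CPM (median 139) in SST against from 2.72 to 62.4 CPM (median 9.72) in PYC and from 0.239 to 159.9 CPM (median 20.7) in VIP. It was higher in PV (1.81 ± 0.28) and SST (1.95 ± 0.27; adjusted p = 1.64e-07 and 5.71e-08, edgeR), which Pdgfra and Cspg4 were not. Ptprz1, a phosphatase receptor gene, was higher in VIP (1.58 ± 0.17; adjusted p = 1.93e-12, edgeR), at 274 ± 104 CPM (SD, n = 21). Of 22 further microglial genes only 4 were abundant enough to be tested. Called were 0 in PYC, 1 in PV, 1 in SST and 2 in VIP. These were 0%, 25%, 25% and 50% of those tested, against 16.6%, 22.6%, 7.56% and 12% of all genes. Sall1, a transcription factor gene of microglial identity, ran from 34.3 to 157 CPM (median 100.1) in VIP, against from 0 to 31.2 CPM (median 9.22) in PYC, from 0 to 16.8 CPM (median 6.02) in PV and from 0 to 59.4 CPM (median 8.94) in SST. It was higher in VIP by 3.27 ± 0.34 (log2, SE; adjusted p = 2.56e-13, edgeR), while Csf1r and Cx3cr1 were not called there. Sall1 was lower in PV (-1.40 ± 0.42; adjusted p = 0.00876, edgeR). The endosomal protease gene Lgmn was higher in SST (0.82 ± 0.20) and lower in VIP (-0.72 ± 0.22; adjusted p = 0.00191 and 0.0145, edgeR).

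Of 25 further endothelial genes 9 were tested. Called were 2 in PYC, 1 in PV, 1 in SST and 1 in VIP. These were 22.2%, 11.1%, 11.1% and 11.1% of those tested, against 16.6%, 22.6%, 7.56% and 12% of all genes. Cd34, a surface sialomucin gene, was higher in PYC by 2.18 ± 0.37 (log2, SE; adjusted p = 1.19e-06, edgeR), at 56.1 ± 26.4 CPM (SD, n = 21) against 12.1 ± 9.98 CPM (SD, n = 20) in PV, 10.6 ± 10.95 CPM (SD, n = 21) in SST and 19.3 ± 20.9 CPM (SD, n = 21) in VIP. Cd34 was lower in SST (-1.32 ± 0.44; adjusted p = 0.0453, edgeR). Bsg, the basigin gene, was higher in PV (0.50 ± 0.08) and lower in PYC (-0.28 ± 0.08) and VIP (-0.35 ± 0.08; adjusted p = 1.80e-07, 0.00813 and 7.56e-04, edgeR). Flt1 did not pass in any type, with a smallest adjusted p of 0.287 (VIP). Of 13 mural and 10 fibroblast genes, 2 and 1 were tested between types and 0 were called in any. For comparison, of the 14 general neuron genes 10 were called in PYC, 11 in PV, 5 in SST and 8 in VIP. These were 71.4%, 78.6%, 35.7% and 57.1%, against 16.6%, 22.6%, 7.56% and 12% of all genes.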

How the data were processed

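Total RNA of captured neuron pools had been sequenced with a stranded kit for picogram input, per the labels' protocols. Per the submitters' processing notes, the aligner was HISAT2 and the genome build GRCm38. The counting tool, its annotation and its strand setting were not given in the sources used here. The authors deposited 1 table of raw counts per gene, with whole numbers and no normalization. No pair of libraries was identical. Gene positions and exon lengths were read from GENCODE M21 (GRCm38), in which all 44 genes were found. Libraries are numbered within a group in accession order, and the numbers pair nothing.

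CPM is the count scaled to a library total of 1e6, and CPM per kb divides it by exon length. Age within a type was tested with edgeR 4.0.16 (R 4.3.3; TMM, filterByExpr with a minimum count of 10, robust quasi-likelihood test, 2-sided). Types and the interaction were tested in 1 fit of the 8 groups on genes at or above the median abundance of those that passed the filter. Benjamini-Hochberg adjustment covered all genes tested, and a call is an adjusted p under 0.05. Pairs used permutation within age (numpy 2.4.6, scipy 1.17.1, pandas 2.3.3), with matplotlib 3.10.9 for plots. Alternatives were RLE scaling, no filter or all filtered genes, DESeq2 1.42.0, limma-voom (limma 3.58.1), a fit of all groups, a library total covariate, the F number of the sample titles as a factor, single ages, and leaving out the 6 libraries under 3% mitochondrial counts. In simulated data the type test recovered 47.96% to 64.29% of genes changed 2-fold and 86% to 94% of those changed 4-fold on 9178 to 9202 genes, and the age test 11.7% to 27.37% and 36.36% to 47.96% on 11545 to 12111 genes. False calls in these simulations numbered 0 to 8 for the type test and 0 to 4 for the age test. The 44 genes, the wider lists and the tests were chosen with earlier results of these data known. Full values are given for the 3 most abundant genes of a class, a panel (Gfap, Apoe, Slc1a2, Mbp, Pdgfra, C1qa, Cldn5), genes called, up to 3 genes per type with an unadjusted p under 0.05 for age, and up to 3 called genes of a wider list per comparison. Counts carry no molecular identifiers, so the limit for a count of 0 covers counting error only. A result for 1 gene of the wider oligodendrocyte list is not reported here.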

Additional observations from a re-analysis of the deposited data

Results flagged for a closer look

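Single libraries that stood far from the rest of their group were looked for by the gap of the highest or lowest value to its neighbour, relative to the whole range. Of 48 sets of values tested (7 genes and the 5 class sums in the 4 young groups), 7 held such a library. The nominal chance rate is about 1 in 20 sets. How often such gaps arise in raw CPM of sparse genes was not tested, so the 7 are not read as an excess. Cldn5, C1qa and Gfap, for example, had no count in 37, 33 and 23 of the 83 libraries. Apoe was 1149 CPM in young PYC 2, and the next library of that group was at 371 CPM. Mbp was 918 CPM in young VIP 3, next to 446 CPM. Both are among the 6 libraries with few mitochondrial counts. The other 5 were in libraries with the usual share. Cldn5, of the blood-brain barrier, was 14.0 CPM in young PYC 9, next to 5.70 CPM, and 9.59 CPM in young PV 3, next to 3.59 CPM. C1qa, of complement, was 15.5 CPM in young PV 8, next to 5.07 CPM, and 16.9 CPM in young SST 3, next to 3.80 CPM. Gfap, the astrocyte filament gene, was 44.3 CPM in young VIP 9, next to 21.9 CPM. All 7 were the highest library of their group. Groups of 12 old libraries were not searched.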

How the results depend on the processing

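The 0 members called for age stayed 0 in each type, and for the interaction, under each alternative run. Over all genes the age test without a filter called 6505, 6355, 5734 and 7117 genes (PYC, PV, SST, VIP), the fit of all 8 groups 13, 1, 0 and 0, DESeq2 0, 2, 1 and 0, limma-voom 2, 2, 1 and 0, and the interaction on all filtered genes 601 of 19208. The type and interaction fit had been restricted to more abundant genes because sparse genes gave false calls in an earlier simulation of it. The share of false calls in the age test without a filter was not tested, so its counts are not read as age differences. The number of members called between types moved by over 1.5 times as follows, and the cause was not tested. In PYC (1 member) it was 2 with RLE, 2 with DESeq2, 4 with limma-voom, 0 with old libraries alone and 2 without the 6 libraries with few mitochondrial counts. In PV (5) it was 3 on all filtered genes, 9 with limma-voom, 2 with old and 2 with young libraries alone. In SST (1) it was 2 on all filtered genes, 3 with DESeq2, 7 with limma-voom, 0 with old and 0 with young libraries alone, 0 with the F number as a factor and 2 without the 6 libraries. In VIP (3) it was 5 with DESeq2, 8 with limma-voom and 1 with young libraries alone. Single ages hold fewer libraries. Over all genes, all filtered genes gave 2560, 3273, 1538 and 2299 calls in PYC, PV, SST and VIP, old libraries alone between 446 (SST) and 1431 (PV), young alone 704, 1074, 256 and 533, and limma-voom 1138 in SST. Apoe and Slc1a2 in PV and Apoe in VIP passed in each of the 9 settings (edgeR, DESeq2 and limma-voom), Slc1a2 in PYC and Glul in VIP in 8, Clu in PV in 7, Slc1a2 in VIP in 6 (not in the analysis as reported), Clu in SST, Cspg4 in PV and Aldoc in SST (lower, not in the analysis as reported) in 5, S100b in VIP in 4 and Aldoc in PV in 3. Also not in the analysis as reported, Fgfr3 passed as higher in VIP in 3 settings. Apoe and Glul in PYC and Slc1a3 in PV passed as lower in 2 each. The remaining such calls passed in 1 setting each. No difference or correlation changed sign where it was called. Pairs called fell from 7 to 4 without the 6 libraries and were 5 with TMM-scaled CPM. The astrocyte sums without Slc1a2, and without Slc1a2 and Apoe, were added after seeing the data; PV had the lowest mean at each age in both. No paired analysis was possible because the labels tie no library to a mouse or to a library of another group; the F number of the titles, which is unexplained and spread unevenly over the groups, was used only as a factor. Depth limits the rarer genes: 8 of the 44 had a median count under 10, and 17 of the 44 were not abundant enough to be tested between types.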

Other observations

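Connexin genes of glia were found together in a large part of the pools. All 3 of Gja1 and Gjb6, of astrocytes, and Gjc3, of oligodendrocytes, had a count in 42 of 83 libraries, 2 of them in 38 and 1 in 3.

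Of the 44 genes, 20 overlap another gene of the annotation, 17 of them a gene on the opposite strand, and the strand setting of the counting is not known. A partner was more abundant than the glial gene for 6 of the 20, and for the rest it was lower, at 0 or not counted in the table. S100b and P2ry12 are among the 6. Slc7a10, an astrocyte amino acid transporter gene with a mean of 4.05 CPM, overlaps Lrp3 (78.4 CPM). Cnp, the myelin enzyme gene with 32.8 CPM, overlaps Dnajc7 (62.3 CPM). For microglia, Cx3cr1 (13.0 CPM) overlaps Wdr48 (55.2 CPM) and Csf1r (19.0 CPM) overlaps Hmgxb3 (53.2 CPM). Whether reads of the partner entered these counts was not tested.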
